A study of Mus musculus with 3 samples.

Results

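Parathyroid hormone-related protein (PTHrP) is the secreted product of Pthlh. The transcripts described here are those of Pthlh, of the receptor genes Pth1r and Pth2r, and of mCherry, the red fluorescent protein that reports Pthlh activity in these mice. Together they are 4 rows of the gene table, found by symbol and joined by identifier, of 21446 identifiers shared by 3 libraries. Each library held cells of mandibular molars, pooled from mice with a Pthrp-mCherry knock-in allele, sorted by fluorescence and sequenced from the transcripts' 3' ends on the 10x platform. There was 1 library for each of 3 ages, postnatal day 15 (P15, 12926 cells), day 25 (P25, 8971 cells) and 8 weeks (5192 cells), and values below are listed in that order where no age is named. All cells came from mice with the Pthrp-mCherry allele, with no unlabelled or reporter-negative control library. The sources used here do not say whether 1 or both Pthlh alleles carried mCherry in the sorted mice. The study as a whole used mice of both sexes, mostly of C57BL/6 background. Since the sort took cells by mCherry fluorescence, the levels of Pthlh and mCherry describe what the sort let through, not the molar as a whole.

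PTHrP acts over short distances. It binds PTH1R, a G protein-coupled receptor that it shares with parathyroid hormone and that raises cyclic AMP through Gs and calcium through Gq. In the developing tooth the ligand is made by cells of the dental follicle and the root surface, and signalling through PTH1R is needed for tooth eruption and for normal root and cementum formation. PTH2R is a related receptor whose own ligand is the peptide TIP39.

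Pthlh (ENSMUSG00000048776) lies on the minus strand of chromosome 6 from 147252101 to 147264183 (GRCm38, the build that the labels call mm10). Pth1r (ENSMUSG00000032492) lies on the minus strand of chromosome 9 from 110722085 to 110747145, and Pth2r (ENSMUSG00000025946) on the plus strand of chromosome 1 from 65282056 to 65389244. All 3 are protein-coding genes. mCherry is a row that the authors added to the reference and has no place in it. Because the reporter is read from the Pthlh locus, the 80 bases before the most upstream annotated Pthlh start (chr6:147264184-147264263, minus strand, RefSeq table of GRCm38.p6) are shown, with CG dinucleotides in capitals.
Pthlh upstream: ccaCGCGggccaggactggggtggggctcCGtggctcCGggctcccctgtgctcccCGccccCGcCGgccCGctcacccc
The 250 bases before the RefSeq start of Pthlh held 26 CG dinucleotides, a number reached by 9.59% of 32851 such windows in that table. The same window held 3 CG dinucleotides at Pth2r and between 3 and 22 at the 3 listed starts of Pth1r.

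Cells were grouped by the unique molecular identifiers (UMIs, each standing for 1 captured transcript) of single marker genes that are not among the 4 rows. Ibsp (bone sialoprotein) and Ifitm5 (a membrane protein of mineralizing cells) mark matrix-forming cells. Hand2, a transcription factor, was used for mesenchymal cells near the root apex, Rgs5 for mural cells of vessels, Krt14 for epithelium, Ptprc (CD45) for leukocytes and Mki67 for cycling cells. A gate needed 5 UMIs per 10000 for Ibsp, Ifitm5, Rgs5 or Krt14, and 2 UMIs for Hand2, Ptprc or Mki67. The gates per 10000 had no minimum count, so a shallow cell could pass them on 1 UMI. Cells in several mesenchymal gates were counted under Ifitm5, then Ibsp, then Hand2, and cells that passed the Krt14, Ptprc or Rgs5 gate together with another were set aside as mixed (866, 261 and 129 cells at P15, P25 and 8 weeks). The Ibsp gate held 1859, 2213 and 1917 cells in that order, the Ifitm5 gate 351, 601 and 213, the Hand2 gate 226, 241 and 114, and the Krt14 gate 2041, 1081 and 152. The Rgs5 gate held 203, 16 and 52 cells and the Ptprc gate 720, 192 and 17. The largest group, with 6660, 4366 and 2598 cells, passed none of these gates.

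Other markers fitted most gates. Dmp1, a mineral matrix gene, lay at 148, 95.2 and 121 CPM (UMIs of a gene per 1000000 UMIs of the summed cells of a gate) in the Ibsp gate and at 359, 526 and 527 CPM in the Ifitm5 gate, against 0.851 to 1.90 CPM in the Hand2 gate. Krt5 lay at 3759 to 6172 CPM in the Krt14 gate and at 3.51 to 52.6 CPM in the other gates, and Tyrobp at 1690 to 2597 CPM in the Ptprc gate, at most 26.3 CPM in the other gates and up to 37.3 CPM in ungated cells. The Rgs5 gate went against its marker at 8 weeks, where Kcnj8 had no UMI and Notch3 was at 8.62 CPM against 584 CPM at P15, so it is called by its gene only. The odontoblast gene Dspp stayed at or under 41.4 CPM in all gates. Median UMIs per cell were 14253.5, 15834.0 and 8712.5 at P15, P25 and 8 weeks, pairs of libraries shared 13 to 26 cell barcodes, and the P25 library was counted against a larger gene reference (32293 against 22056 entries), which cannot be told apart from its age.

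Pthlh was highest in the matrix-forming gates. In the Ibsp gate its level was 387 (95% Poisson interval 380 to 394), 288 (282 to 294) and 320 CPM (311 to 329). The Ifitm5 gate had 299 (285 to 312), 219 (212 to 226) and 270 CPM (249 to 292). At each age the Ifitm5 gate lay below the Ibsp gate by more than the counting intervals, but across ages the ranges of both overlapped. Pthlh ranked 321st of 15758 detected genes in the Ibsp gate at P15, 418th at P25 and 383rd at 8 weeks. Intervals on levels and shares cover counting error only, and with 1 library per age no difference between ages could be tested.

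Of 300, 1201 and 831 cells with enough Hand2 UMIs, the Hand2 gate kept the 226, 241 and 114 that passed no other gate. This gate held far less Pthlh, at 19.2 (15.4 to 23.5), 58.6 (51.9 to 65.9) and 41.4 CPM (31.5 to 53.4). It did not overlap the Ibsp or Ifitm5 gate in any library. Krt14-gated cells were in between, at 153 (148 to 158), 78.8 (75.4 to 82.3) and 81.3 CPM (69.1 to 95.1). In Ptprc-gated cells, leukocytes that should lack the gene, 19.9 (17.2 to 22.8), 29.6 (24.1 to 36.0) and 9.67 CPM (1.17 to 34.9) were counted. At P15 the Hand2 gate was therefore within the interval of the Ptprc gate, at P25 it was above it, and at 8 weeks their intervals overlapped.

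The ungated cells and the Rgs5 gate, like the Hand2 gate, had their lowest Pthlh level at P15, the age at which the Ibsp gate had its highest. Pthlh in ungated cells was at 92.5 (90.7 to 94.4), 191 (188 to 195) and 186 CPM (180 to 191). The make-up of these cells changed too. Their summed level of Dmp1, Ifitm5, Bglap, Phex and Col11a2 was 294, 1168 and 3554 CPM. Their summed level of 3 erythroid genes was 6144, 5172 and 1054 CPM, and the part of these changes in the Pthlh values was not tested. Rgs5-gated cells had 19.3 (14.0 to 26.0), 112 (65.1 to 179) and 149 CPM (112 to 196). The P25 value rests on 16 cells and 17 Pthlh UMIs. The summed level of 7 mural markers in that gate was 12620, 3443 and 1229 CPM, with 1 of the 7 at 0 in each of the later libraries, and the part that this change in its cells has in the Pthlh values was not tested.

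mCherry had a similar order of gates at a higher level. It lay at 680 (671 to 690), 500.5 (493 to 508) and 807 CPM (793 to 821) in the Ibsp gate and at 569 (551 to 588), 393 (383 to 403) and 596 CPM (565 to 629) in the Ifitm5 gate. Krt14-gated cells had 465 (456 to 474), 293 (286 to 299) and 405 CPM (377 to 434). Ungated cells had 201, 331 and 391 CPM, which was above the Krt14 gate at P25 only, and Rgs5-gated cells 64.6, 250 and 345 CPM. Lower levels were found in the Hand2 gate, with 60.01 (53.2 to 67.4), 163 (152 to 175) and 130 CPM (112 to 150), and in the Ptprc gate, with 52.6 (48.2 to 57.2), 25.8 (20.7 to 31.8) and 4.84 CPM (0.122 to 26.9). Both transcripts thus separated the Ibsp gate from the Ptprc gate in each library, and relative to the Ibsp gate the Krt14 gate held more mCherry than Pthlh. No other transgene row had more than 2 UMIs in a library.

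Pth1r had another distribution. Its level was of the same order in all mesenchymal gates, with 70.1 (67.1 to 73.2), 48.3 (46.0 to 50.7) and 48.6 CPM (45.3 to 52.2) in the Ibsp gate and 63.4 (56.4 to 71.0), 62.2 (55.3 to 69.7) and 70.8 CPM (57.7 to 86.0) in the Hand2 gate. The Ifitm5 gate at P15 was the highest sum, with 102 CPM (94.2 to 110), and later held 57.4 (53.7 to 61.3) and 61.9 CPM (52.2 to 72.9). Ungated cells held 61.6, 49.5 and 47.6 CPM. In Krt14-gated cells the receptor was at 8.41 (7.30 to 9.64), 3.88 (3.16 to 4.71) and 4.69 CPM (2.14 to 8.90), and in Ptprc-gated cells at 11.3 (9.33 to 13.6), 6.75 CPM (4.28 to 10.1) and 0 UMIs, which allows up to 14.5 CPM at 3 UMIs. With all cells kept, the Krt14 gate as a whole thus had the ligand and reporter transcripts without more receptor transcript than the Ptprc gate had.

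Pth2r was nearly unread. All cells of a library together held 3, 0 and 1 UMIs, and only 1 UMI fell in any of the 6 gates (Rgs5, P15). The count of 0 at P25 allows up to 0.0186 CPM at 3 UMIs. Among the other ligands, Pth (parathyroid hormone) and Pth2 (TIP39) had no UMI in the 19 sums of at least 20 cells. Pth2r did not pass the filter on low counts, so it has no test, and the other 3 rows passed it.

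**Figure D1:**
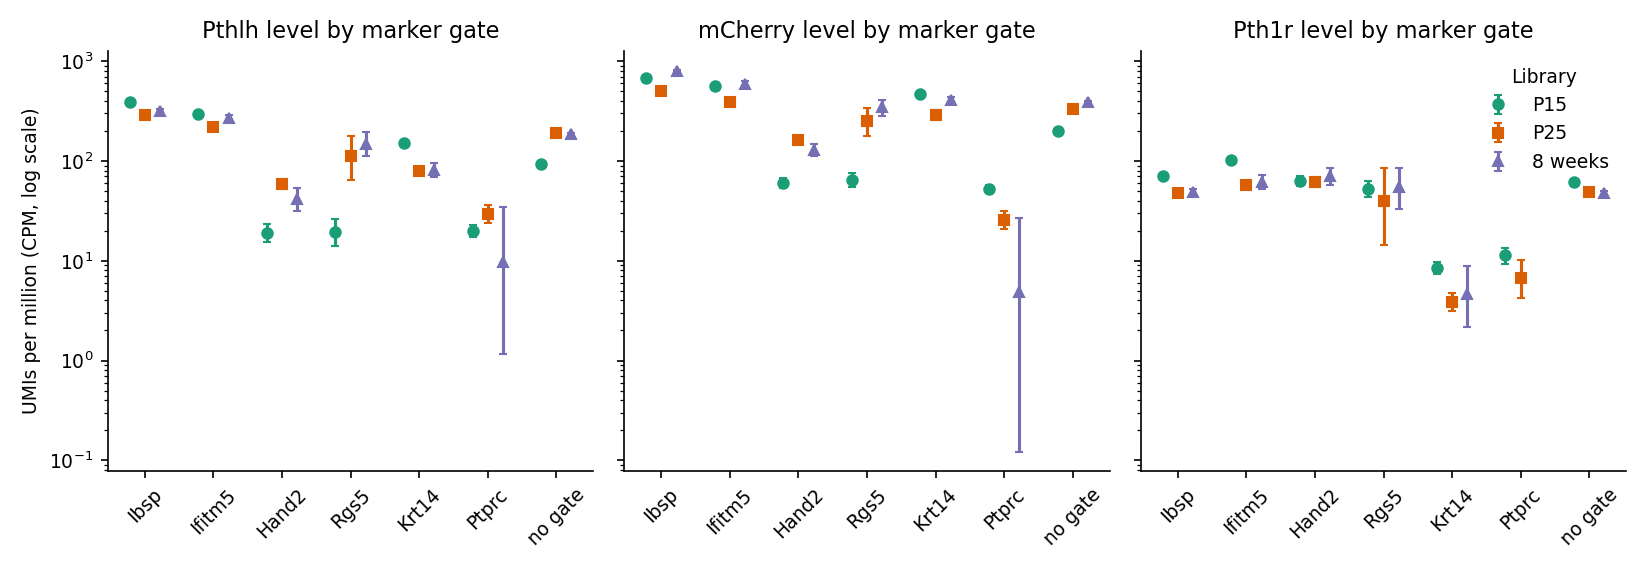
Level of Pthlh, mCherry and Pth1r in CPM (log scale) in cells of each marker gate and in cells of no gate, with 1 point per library (P15, P25, 8 weeks) and 95% Poisson intervals. Pthlh and mCherry are highest in the Ibsp and Ifitm5 gates, and Pth1r falls to 3.88 to 11.3 CPM in the Krt14 and Ptprc gates, whose Pth1r sum without a UMI at 8 weeks has no point.

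The gates were compared with edgeR's quasi-likelihood test on the summed counts, with Benjamini-Hochberg adjustment over all genes tested and the 3 libraries as the replicates of a gate. The Rgs5 gate had no sum at P25 (16 cells) and the Ptprc gate none at 8 weeks (17 cells). Pthlh was higher in the Ibsp gate than in the Hand2 gate (log2 fold change 3.12, standard error 0.57, edgeR adjusted p = 0.021), in 3 of 3 libraries, and so was mCherry (2.55, standard error 0.53, adjusted p = 0.041). In this comparison 0.938% of 13537 genes tested passed the threshold in either direction. Pth1r did not pass it (-0.17, 0.27, edgeR adjusted p = 0.98). Without the P25 library the fold changes of Pthlh and mCherry were 3.67 and 3.06 and neither passed (edgeR adjusted p = 0.35 for both), nor did they without 8 weeks (adjusted p = 0.081 and 0.19 in edgeR). The calls also rest on the gates. With 1 UMI as the gate, Pthlh and mCherry differed by 0.72 and 1.19, and with overlapping gates by 0.95 and 0.67, and none of these passed (edgeR adjusted p of at least 0.64). The 1-UMI Hand2 gate held only 19 cells at P15, so that sum was left out, and 32 at P25 and 50 at 8 weeks. This limit holds for every 1-UMI comparison with the Hand2 gate below. Leaving out the cells with the highest doublet scores kept the call of Pthlh and ended that of mCherry (2.76, edgeR adjusted p = 0.074).

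Against the same Hand2 gate, the Ifitm5 gate was higher in Pthlh by 2.98 (standard error 0.57, edgeR adjusted p = 0.00485) and in mCherry by 2.39 (0.53, adjusted p = 0.0102) on the log2 scale, where 12.9% of all genes were called. Here too the call was lost without P25 (edgeR adjusted p = 0.092 for Pthlh and 0.094 for mCherry), and that of mCherry also without 8 weeks (0.058). Neither passed with 1-UMI gates (1.11 and 1.49) or with overlapping gates (0.83 and 0.54). Between the Ibsp and Ifitm5 gates no member passed, although the Ibsp gate was higher in Pthlh and mCherry and lower in Pth1r in 3 of 3 libraries. Pthlh differed by 0.14 (standard error 0.52, edgeR adjusted p = 0.97), mCherry by 0.15 (0.50, adjusted p = 0.96) and Pth1r by -0.59 (0.27, adjusted p = 0.32), and 1.93% of genes were called. A standard error of 0.52 leaves room for sizeable differences in either direction.

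Epithelial cells differed from the Hand2 gate in all 3 tested genes. Pthlh was higher in the Krt14 gate by 1.51 (standard error 0.54, edgeR adjusted p = 0.0441) and mCherry by 1.84 (0.52, adjusted p = 0.0146), and Pth1r was lower (-3.36, 0.31, adjusted p = 9.53e-06). This comparison called 35.8% of all genes. The call of Pth1r held without each library in turn, with log2 fold changes between -3.79 and -3.13, whereas that of Pthlh was lost without P25 (edgeR adjusted p = 0.12) and without 8 weeks (0.051) and that of mCherry without P25 (0.062). Pthlh also missed the threshold when no filter on low counts was set (1.4998, edgeR adjusted p = 0.061). With 1-UMI gates none of the 3 passed and Pth1r turned to 0.43, and with overlapping gates Pthlh turned to -0.60 and mCherry to -0.054. The 1-UMI Krt14 gate held 2860, 1831 and 168 cells, with Pth1r at 43.0, 32.7 and 27.5 CPM. In the Krt14 gate as first drawn Pth1r lay at 8.41, 3.88 and 4.69 CPM. The 1-UMI Hand2 gate had Pth1r at 14.9 and 37.8 CPM at P25 and 8 weeks, against 62.2 and 70.8 CPM as first drawn. The value of 0.43 thus does not describe the Krt14 gate as first drawn.

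Toward leukocytes, Pth1r was the gene that separated the Hand2 gate. It was higher than in the Ptprc gate by 2.60 (standard error 0.34, edgeR adjusted p = 8.73e-05), whereas Pthlh (0.54, standard error 0.61, adjusted p = 0.52) and mCherry (1.36, 0.59, adjusted p = 0.085) did not pass, and 39.3% of all genes were called. Without the P15 library, which left the P25 sum alone in the Ptprc gate, mCherry was at 2.47. No call is read from that fit. mCherry passed without the highest doublet scores (2.21, edgeR adjusted p = 0.027) and with stricter gates (1.49, edgeR adjusted p = 0.00611). Without the cells of those scores Pth1r rose to 4.01, and Pthlh to 1.40, which did not pass (edgeR adjusted p = 0.105). Between the Krt14 and Hand2 gates Pth1r was then at -3.83, so the Ptprc gate no longer held more Pth1r than the Krt14 gate. With 1-UMI gates Pthlh (3.23) and mCherry (2.93) passed and Pth1r (0.95) did not, and with overlapping gates Pthlh (1.93) and mCherry (2.53) passed as well. The Ptprc gates so drawn held 11 and 19 cells at 8 weeks, and those sums were left out. The Rgs5 and Hand2 gates did not differ in the called sense for Pthlh (0.81, standard error 0.64, edgeR adjusted p = 0.61), mCherry (0.63, 0.57, adjusted p = 0.68) or Pth1r (-0.41, 0.33, adjusted p = 0.62), with 2.24% of genes called. That comparison had 2 Rgs5 sums, and its sign depended on which of them was kept. Pthlh was at 1.43 without P15 and at -1.16 without 8 weeks, each time with a lone Rgs5 sum. It turned to -0.87 and -0.19 with overlapping and 1-UMI gates. Stricter gates gave -1.34, from an Rgs5 arm with the P15 sum only, which is assumed to vary like the other sums.

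The split by Mki67 took cells that passed none of the Ptprc, Krt14 and Rgs5 gates, without a marker of mesenchyme. They include the ungated cells, whose 3 erythroid genes summed to 6144, 5172 and 1054 CPM and 8 immune markers to 670 CPM at P15. The part of such cells in the values below was not tested. Cells with 2 or more Mki67 UMIs, called cycling, held less Pthlh than those with none at each age, at 81.3 against 168, 127 against 222 and 194 against 234 CPM. mCherry showed the same order, with 205 against 321, 295 against 383 and 436 against 546 CPM. Pth1r was at 54.7 against 66.7, 58.5 against 50.03 and 43.3 against 49.5 CPM. The cycling cells were deeper, with median UMIs of 19238 against 15105, 26769.5 against 14755 and 16873 against 8781. The part that depth has in these values was not tested. In edgeR the fold changes of Pthlh (-0.70, standard error 0.32, adjusted p = 0.24), mCherry (-0.46, 0.31, adjusted p = 0.43) and Pth1r (-0.070, 0.19, adjusted p = 0.89) did not pass, and 8.09% of 13416 genes were called. Both sums of a library come from 1 sort, and with the library as a replicate block Pthlh (-0.77, edgeR adjusted p = 0.00679) and mCherry (-0.48, adjusted p = 0.00609) passed, together with 3413 genes in place of 1085. The 8-week cycling sum had 37 cells.

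The level of Ibsp itself was used to look at finer steps, a split made after the gate values had been seen. It covered cells that passed none of the Ptprc, Krt14, Rgs5 and Ifitm5 gates, and no marker of mesenchyme was required. Steps under 5 Ibsp UMIs per 10000 hold ungated and Hand2-gated cells, and the ungated cells also had erythroid UMIs. At P15, Pthlh rose with each step, from 83.3 CPM in 5329 cells under 1 Ibsp UMI per 10000 to 112, 161 and 271 CPM and then to 570 CPM (558 to 583) in 853 cells with 100 or more. At P25 and 8 weeks the relation was not monotonic. Pthlh went from 185 CPM under 1 Ibsp UMI per 10000 down to 134 CPM (127 to 142) at 5 to 20 and up to 463 CPM (452 to 474) at 100 or more at P25, and from 181 to 97.9 (88.4 to 108) to 537 CPM (520 to 554) at 8 weeks. The lowest Pthlh at these ages was therefore found in cells with some Ibsp, below cells with almost none. At 8 weeks the 582 cells of that step were shallower, with a median of 4132 UMIs against 9235 under 1 Ibsp UMI per 10000, while at P25 the medians were 14447 and 15577.

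mCherry had the same shape, for which the same 3 steps held 319, 242 and 761 CPM in the P25 library, and 376, 284 and 1316 CPM in that of 8 weeks. Pth1r changed less and was not monotonic. At P15 it went from 60.3 (58.7 to 62.0) to 66.9 (63.6 to 70.3) and 79.0 CPM (72.2 to 86.3) over the first 3 steps, a rise beyond the counting intervals. The same steps held 50.03 (48.3 to 51.8), 51.4 (47.5 to 55.6) and 55.1 CPM (50.2 to 60.3) at P25, where neighbouring intervals overlapped, and 49.4 (45.8 to 53.2), 48.3 (44.3 to 52.7) and 63.7 CPM (56.0 to 72.0) at 8 weeks. In the highest step Pth1r was at 62.3 (58.2 to 66.6), 36.2 (33.1 to 39.4) and 36.6 CPM (32.4 to 41.3), and in the step from 20 to 100 at 75.5 (70.03 to 81.3), 58.0 (53.8 to 62.4) and 54.4 CPM (48.0 to 61.5). In each library the receptor was thus lower in the highest step than in the one before it, while at P15 it was close to the 60.3 CPM of cells under 1 Ibsp UMI per 10000.

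**Figure D2:**
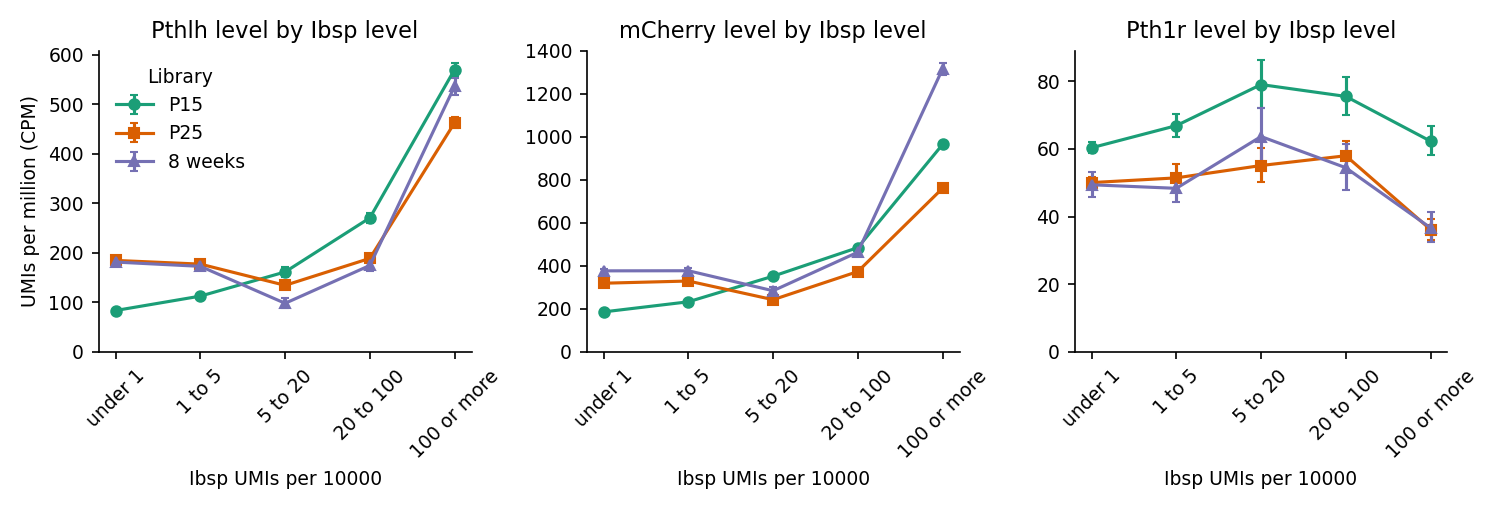
Level of Pthlh, mCherry and Pth1r (CPM, linear axes from 0) by Ibsp UMIs per 10000, with 1 line per library and 95% Poisson intervals. The cells shown passed none of the Ptprc, Krt14, Rgs5 and Ifitm5 gates. Pthlh reaches 463 to 570 CPM in the highest step, with a dip at 5 to 20 at P25 and 8 weeks, and Pth1r is lower in the highest step than in the step before it.

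Most Ifitm5-gated cells also passed the Ibsp gate (228 of 351, 489 of 601 and 204 of 213). Pthlh in those that did was at 438 (417 to 458), 229 (221 to 238) and 272 CPM (251 to 295). Those that did not held 72.2 (62.0 to 83.5) and 177 CPM (163 to 193) at the first 2 ages, with 9 cells left at 8 weeks. Pth1r moved in the same direction at P15, with 130 CPM (120 to 142) against 55.0 CPM (46.2 to 65.0). Cells of the Ibsp gate that also had 2 or more Hand2 UMIs numbered 53, 909 and 711. Their Pthlh level was 123 (103 to 147), 263 (255 to 271) and 305 CPM (293 to 318), against 400, 300 and 346 CPM in Ibsp-gated cells with no Hand2 UMI. At 8 weeks the cells with no Hand2 UMI were shallower, with a median of 4610.5 UMIs against 10101. The part that depth has in this split was not tested. Hand2 with Ibsp thus went with a Pthlh level near that of the Ibsp gate at P25 and 8 weeks, and Hand2 without Ibsp with a low one.

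The Krt14 gate was not uniform. With 100 or more Krt14 UMIs per 10000, Pthlh was at 163 (156 to 170), 71.5 (67.9 to 75.2) and 62.9 CPM (50.7 to 77.2) and Pth1r at 3.41, 1.61 and 0.684 CPM, the last of these from 1 UMI. With 5 to 20 per 10000, Pthlh was at 201 (187 to 214), 238 (207 to 271) and 444 CPM (328 to 589) and Pth1r at 19.8, 23.8 and 74.1 CPM. This low step held 763, 215 and 50 cells. At 8 weeks it held 48 of the 156 Pthlh UMIs and 8 of the 9 Pth1r UMIs of the gate. Its cells had a median of 2855, 1947 and 1344 UMIs against 21125, 30926 and 19740 in the high step, and the part that depth has in these values was not tested. At the median depth of P25 and of 8 weeks, 1 Krt14 UMI was enough to enter the low step. In the fit with cells of at least 3000 UMIs, an alternative added after the data were seen, the Krt14 to Hand2 fold changes were 1.52 for Pthlh, 1.86 for mCherry and -3.67 for Pth1r, and all 3 stayed called.

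The share of cells with a UMI depends on depth, so each cell was thinned to 3000 UMIs, which left out 1762, 778 and 959 shallower cells. After thinning, 54.4% (Clopper-Pearson 95% interval 52.0 to 56.8), 48.0% (45.8 to 50.1) and 48.1% (45.5 to 50.7) of Ibsp-gated cells had a Pthlh UMI. Unthinned, the shares were 77.9%, 75.6% and 61.8%. In the Ptprc gate 3.06% (1.90 to 4.64), 4.71% (2.18 to 8.76) and 0 of 15 cells (interval up to 21.8%) had one after thinning. The Hand2 gate, with 6.67% (3.78 to 10.8), 13.7% (9.62 to 18.7) and 11.5% (6.27 to 18.9), overlapped that background at P15 and lay above it at P25. Krt14-gated cells had shares of 29.2% (26.8 to 31.6), 18.7% (16.1 to 21.6) and 15.2% (8.74 to 23.8).

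For mCherry the thinned shares were 58.6%, 58.4% and 70.3% in the Ibsp gate, 43.3%, 40.8% and 59.6% in the Krt14 gate, 11.6%, 25.7% and 27.4% in the Hand2 gate, and 8.89%, 4.19% and 0 of 15 cells in the Ptprc gate. Over all cells the share was 34.5% (33.6 to 35.4), then 50.2% (49.1 to 51.3) and then 60.2% (58.7 to 61.7). In ungated cells, the largest group, it was 29.6% (28.5 to 30.7), 50.3% (48.7 to 51.8) and 55.2% (53.1 to 57.2). Pth1r was found in 18.4%, 13.4% and 13.0% of Ibsp-gated cells, in 19.1%, 14.9% and 15.04% of Hand2-gated cells and in 2.74%, 1.01% and 1.01% of Krt14-gated cells. With doublets kept in, the last shares did not exceed those of the Ptprc gate (2.19% and 3.14% at P15 and P25) beyond their intervals. At 8 weeks the Ptprc gate had Pth1r in 0 of 15 cells, and the source of these UMIs was not tested.

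Although the cells were sorted for the reporter, many had no mCherry UMI even at high depth. Of the cells with at least 20000 UMIs, 25.6% of 2830, 12.4% of 2772 and 6.38% of 188 had none. By gate at P15, these were 10.5% of Ibsp-gated, 27.0% of Ifitm5-gated, 9.05% of Krt14-gated, 39.4% of Hand2-gated and 53.6% of Ptprc-gated cells. At P25 they were 9.17%, 11.6%, 4.52%, 34.0% and 71.9% in the same order. Ungated cells made up 469 of the 724 such cells at P15 (30.4% of 1543 deep ungated cells), and at P25 13.0% of ungated cells had none. Pthlh was absent from more of the deep Krt14-gated cells than mCherry was (19.8% at P15 and 22.6% at P25).

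Cells with mCherry UMIs had Pthlh UMIs more often than cells without them. In the Ibsp gate after thinning, 62.5% of mCherry-positive and 43.1% of mCherry-negative cells had a Pthlh UMI at P15, an odds ratio of 2.20 (95% interval 1.80 to 2.69). The shares were 53.2% and 40.6% at P25 (odds ratio 1.66, 1.39 to 1.99) and 56.7% and 27.7% at 8 weeks (3.42, 2.67 to 4.39). Both transcripts were seen together in 36.6%, 31.1% and 39.9% of cells, against 31.9%, 28.0% and 33.8% if they had been independent. Spearman's rho over these cells was 0.27, 0.19 and 0.44. The association was present in each gate with enough double-positive cells, but per cell it was loose. Cells within a library share their preparation, so these intervals describe these libraries and carry no p.

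The odds ratio was 2.42 (1.53 to 3.84), 1.56 (1.09 to 2.22) and 2.39 (1.19 to 4.91) in the Ifitm5 gate, and 3.03 (2.65 to 3.46), 1.93 (1.69 to 2.21) and 1.63 (1.35 to 1.98) in ungated cells. Krt14-gated cells gave 2.08 (1.63 to 2.64), 1.69 (1.16 to 2.46) and 2.05 (0.549 to 9.55), the last of these from 11 double-positive cells. The Hand2, Rgs5 and Ptprc gates had at most 15 double-positive cells each. For Pthlh and Pth1r the odds ratio in the Ibsp gate was 0.88 (0.68 to 1.13), 0.68 (0.52 to 0.88) and 0.73 (0.53 to 0.998), a weak association in sparse counts that is not read further.

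The association was graded. In the Ibsp gate the share with a Pthlh UMI went from 43.1% at 0 mCherry UMIs to 49.0% at 1, 57.7% at 2, 64.6% at 3 to 5 and 82.7% at 6 or more at P15. At P25 it went from 40.6% to 73.4% and at 8 weeks from 27.7% to 84.6% over the same steps. Ungated cells with 6 or more mCherry UMIs had Pthlh in 63.0%, 58.8% and 50.6% of cases, against 12.8%, 25.1% and 24.2% of those with none. Krt14-gated cells reached 45.5% (34.1 to 57.2) of 77 cells at P15 and 55.0% (31.5 to 76.9) of 20 cells at P25, so that a strong reporter signal came with Pthlh less often there than in the Ibsp gate at P15.

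**Figure D3:**
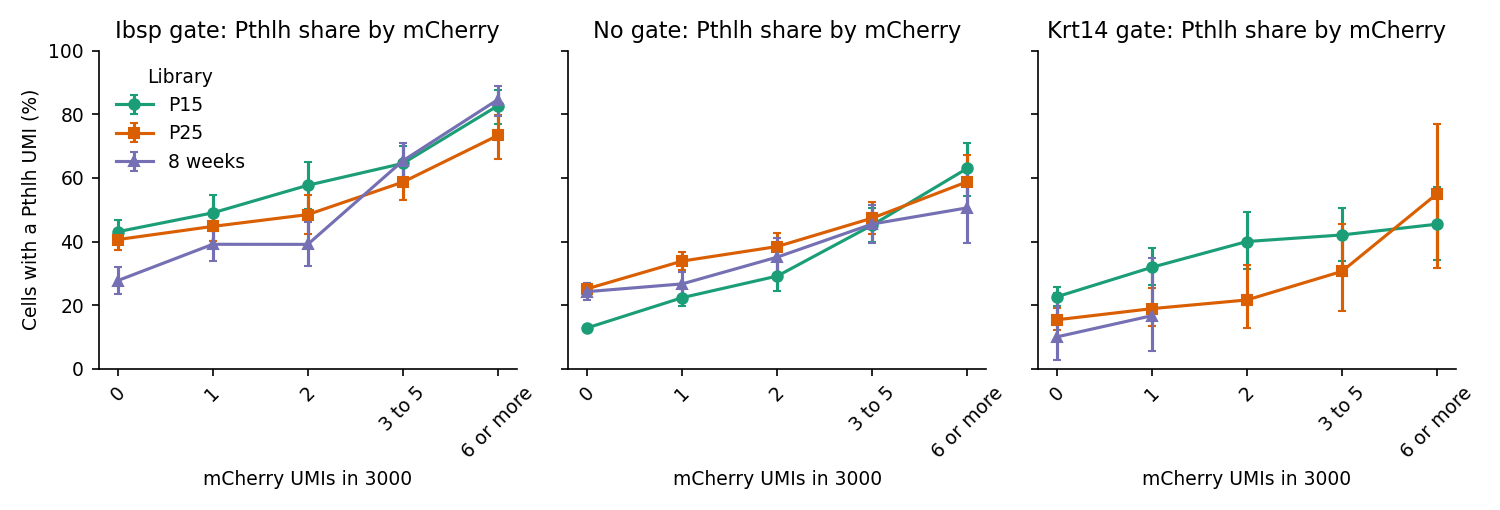
Share of cells with a Pthlh UMI (percent) by the number of mCherry UMIs, each cell thinned to 3000 UMIs, in Ibsp-gated, ungated and Krt14-gated cells, with 1 line per library and Clopper-Pearson 95% intervals. The share climbs to 73.4 to 84.6% in the Ibsp gate, and steps with fewer than 20 cells, at 8 weeks in the Krt14 gate, are not drawn.

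In each library the number of mCherry UMIs per Pthlh UMI was higher in the Krt14 and Hand2 gates than in the Ibsp gate. The ratio is set only between gates, since 3' capture of the reporter and of Pthlh need not be alike. It was 1.76 (1.72 to 1.80), 1.74 (1.70 to 1.78) and 2.52 (2.44 to 2.60) in the Ibsp gate, and 1.91, 1.80 and 2.21 in the Ifitm5 gate. Krt14-gated cells had 3.04 (2.93 to 3.15), 3.71 (3.54 to 3.90) and 4.98 (4.19 to 5.95), and Hand2-gated cells 3.13 (2.46 to 4.02), 2.78 (2.42 to 3.20) and 3.14 (2.33 to 4.28). The Hand2 value at P15 rests on 90 Pthlh UMIs, at a Pthlh level like that of the Ptprc gate. Other gates with little Pthlh had 3.35, 2.24 and 2.31 (Rgs5) and 2.65, 0.871 and 0.5 (Ptprc, the last from 2 Pthlh UMIs). The ungated cells, at 2.17, 1.73 and 2.11, had a mean that differed from the Ibsp gate by 0.014 on the log2 scale. The Krt14 ratios lay above all Ibsp ratios, by a mean of 0.96 on the log2 scale, and the exact permutation test (two-sided) over 3 against 3 libraries gave p = 0.1, the smallest it can give (0.2 adjusted over the 6 comparisons of this ratio, which was chosen after values were seen). The Hand2 ratios also lay above all Ibsp ratios, by a mean of 0.61 on the log2 scale, with the same p of the exact permutation test (0.1, and 0.2 adjusted). Between the Krt14 and Hand2 gates the mean difference was 0.35, with Krt14 higher in 2 of 3 libraries (exact permutation p = 0.3, 0.45 adjusted). These permutation tests shuffled the values freely, although both gates come from the same 3 libraries. They ignore that pairing, so no conclusion is drawn from their p values.

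Among Krt14-gated cells the ratio stood apart most where Krt14 was highest. With 100 or more Krt14 UMIs per 10000 it was 4.05 (3.86 to 4.26), 4.33 (4.09 to 4.59) and 6.87 (5.51 to 8.65), and with 5 to 20 it was 1.499 (1.38 to 1.63), 1.27 (1.06 to 1.53) and 0.979 (0.641 to 1.496). Across the 5 steps of Ibsp it stayed between 1.64 and 2.90. The low Krt14 step, with its shallow cells, thus had a ratio below that of the Ibsp gate.

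**Figure D4:**
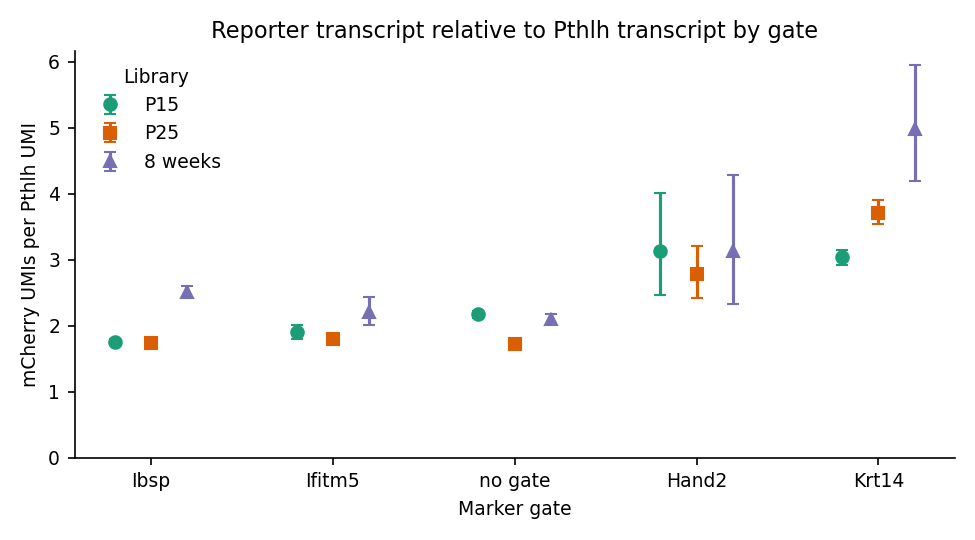
mCherry UMIs per Pthlh UMI in the summed cells of 5 groups (axis from 0), with 1 point per library and 95% intervals of the ratio. The Krt14 gate lies at 3.04 to 4.98 and the Ibsp gate at 1.74 to 2.52, with no overlap between these 2 gates, and the Hand2 gate lies at 2.78 to 3.14.

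The genes most like each row across gates were found by Pearson's r of log2(CPM + 10) over the 19 sums, among 9770 genes with at least 20 CPM in a sum. These sums share 3 libraries, so r is a description. Pthlh was closest to Bmp7, a growth factor of the BMP family (r = 0.94), mCherry (0.93), Emp1 (0.93), Tnfrsf11b (0.86), which encodes the RANKL decoy osteoprotegerin, and Bglap2 (0.86), an osteocalcin gene whose reads can be split with its near-identical neighbours. mCherry was closest to Pthlh itself (0.93), then to Net1 (0.93), Bmp7 (0.90), Emp1 (0.88) and 1700023F06Rik (0.85). Bmp7 ranged from 6.45 to 94.9 CPM and Emp1 from 135 to 672 CPM over the sums. Pth1r was closest to Map1a (0.97), Tmem263 (0.97), Sh3pxd2b (0.96), Selm (0.96) and Ikbip (0.96), and its r with Pthlh was 0.34. Of all genes compared, only Bmp7 was nearer to Pthlh than its own reporter was.

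The other genes of the pathway were taken from a list of 76 with ligands, receptors, G proteins, adenylyl cyclases, protein kinase A subunits, phosphodiesterases, receptor regulators, salt-inducible kinases with their partners, transcriptional targets and hedgehog genes, of which 71 passed the filter on low counts. Between the Ibsp and Hand2 gates 2 were called, both higher in the Ibsp gate (2.82%, against 0.938% of all genes). Without P25 or without 8 weeks 0 were called, beside 13 and 20 of all genes (10 and 13 of the list had an unadjusted edgeR p under 0.05 there). The 2 called were Pthlh and Mef2c (2.41, standard error 0.34, edgeR adjusted p = 0.0042). Mef2c is a transcription factor repressed by class II histone deacetylases, on which salt-inducible kinases act downstream of PTH1R. The median log2 fold change of the list was 0.12 against 0.011 for all genes. Mef2c lay at 636, 321 and 350 CPM in the Ibsp gate and at 104, 61.9 and 92.5 CPM in the Hand2 gate. Between the Ibsp and Ifitm5 gates 2 were called, Grk5, a receptor kinase (2.11, edgeR adjusted p = 0.0459), and Pde3b, which degrades cyclic AMP (1.71, adjusted p = 0.0204), both higher in the Ibsp gate. That is 2.82% of the list beside 1.93% of all genes, and without P25 or without 8 weeks edgeR called 0 genes of the list and 0 of all genes (845 and 1408 of all genes had an unadjusted p under 0.05).

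The Ifitm5 gate differed from the Hand2 gate in 21 of the 71, 10 higher and 11 lower (29.6%, against 12.9% of all genes). That count fell to 1 without P25 (1.39%, against 1.08% of all genes) and to 7 without 8 weeks (9.59%, against 4.04%). Higher were Tnfrsf11b (5.13, standard error 0.94, edgeR adjusted p = 0.00371), Mef2c (3.36, 0.36, adjusted p = 9.8e-05) and Ihh (Indian hedgehog, the partner of PTHrP in the growth plate), which had 45, 115 and 4 UMIs in the Ifitm5 gate and none in the Hand2 gate. The sums of the Ifitm5 gate put Ihh at 6.83, 7.38 and 1.73 CPM, while 3 UMIs would be 0.638, 0.634 and 2.10 CPM in the Hand2 gate. Its call is thus one against counts of 0, and at 8 weeks the Ifitm5 level was under what the Hand2 sum could show. Lower were Tnfsf11 (RANKL, the osteoclast factor that PTHrP induces), at -3.67 (0.93, edgeR adjusted p = 0.0196), and the adenylyl cyclases Adcy1 (-3.62, adjusted p = 0.00843) and Adcy7 (-3.52, adjusted p = 0.00474). Tnfsf11 was rare in all of these cells, with 4.23 to 9.82 CPM in the Hand2 gate and at most 0.758 CPM in the Ifitm5 gate, whereas its decoy Tnfrsf11b lay at 173 to 291 CPM in the Ifitm5 gate against 6.34 to 10.5 CPM. Gnas, the G protein that carries the receptor's cyclic AMP signal, was abundant in each, at 1518 to 1733 CPM in the Ifitm5 gate and 1350 to 1380 CPM in the Hand2 gate (0.50, edgeR adjusted p = 0.0414).

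Of the 71 genes, 29 were lower and 8 higher in the Krt14 gate than in the Hand2 gate (52.1%, against 35.8% of all genes, with a median log2 fold change of -0.72 against 0.059). The lower ones with the largest change were Adcy1 (-4.16, edgeR adjusted p = 0.00109), Tnfsf11 (-4.06, adjusted p = 0.00393) and Adcy5 (-4.00, adjusted p = 0.000158). The higher ones were led by Areg, an EGF receptor ligand that cyclic AMP induces (edgeR adjusted p = 0.00644, at 5.62 to 8.26 CPM against 1 UMI in the 3 Hand2 sums together), Vdr, the vitamin D receptor (3.73, adjusted p = 0.00116), and Slc9a3r1, a scaffold that binds the tail of PTH1R (2.78, adjusted p = 0.00211). Without P25 the number called fell to 14 (19.4% of the list, against 10.7% of all genes) and without 8 weeks to 18 (24.7%, against 17.2%). Without P15 it was 50 (70.4%, against 41.5%). With 1-UMI gates only 2 of 69 were called, both lower (2.90%, against 0.868% of all genes). The 1-UMI Krt14 gate had Pth1r at 43.0, 32.7 and 27.5 CPM, against 8.41, 3.88 and 4.69 CPM as first drawn.

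Between the Hand2 and Ptprc gates 12 were higher and 22 lower in the Hand2 gate (47.9%, against 39.3% of all genes). Without P25 the Ptprc gate had the P15 sum only, so no count is given for that fit. Adcy1 (4.17, edgeR adjusted p = 0.00314), Adcy5 (3.68, adjusted p = 0.000742) and Pth1r led the higher ones, and Areg (adjusted p = 0.00636, with 121 Ptprc-gate UMIs at P15 and none at P25), Ccl2 (-5.23, adjusted p = 0.00223) and the arrestin Arrb2 (-5.06, adjusted p = 1.03e-07) the lower ones. The Rgs5 gate was higher than the Hand2 gate in 3, the immediate-early genes Nr4a1 (2.41, edgeR adjusted p = 0.021) and Junb (1.82, adjusted p = 0.0272) and Mef2c (1.55, adjusted p = 0.0434), which is 4.23% of the list against 2.24% of all genes. That count fell to 0 without P25 (18 of the list at an unadjusted edgeR p under 0.05), where 0 of all genes were called. Without 8 weeks the Rgs5 gate had the P15 sum only, so no count is given for that fit. In cycling cells 1 was called, the protein kinase A subunit Prkar1b (-1.12, edgeR adjusted p = 0.0134), or 1.41% of the list against 8.09% of all genes. With the library as a replicate block 21 were called in the cycling cells (29.6%, beside 25.4% of all genes), 7 between the Ibsp and Ifitm5 gates (9.86%, beside 4.33%) and 6 between the Ibsp and Hand2 gates (8.45%, beside 2.06%).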

How the data were processed

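Cells were sorted for mCherry, and 10x Chromium 3' v3.1 libraries were made by the authors. The deposited files hold whole-number UMI counts per gene and cell, without normalization, made with Cell Ranger (6.1.2 per the labels for each library, and 6.0.1 per the file header at P25) on mm10. The annotation is not given in the sources used here, gene positions come from GENCODE M21, and the upstream sequence from a RefSeq table. Total UMIs were 188157997, 169712592 and 46234378 at P15, P25 and 8 weeks. All deposited cells were kept. Levels are UMIs per 1000000 UMIs of shared genes with exact Poisson intervals, shares carry Clopper-Pearson intervals at 95%, and floors use 3 UMIs.

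Counts were summed per library and gate (at least 20 cells, so that the Rgs5 sum at P25 and the Ptprc sum at 8 weeks were left out of tests), which gave 16 sums and 10 residual degrees of freedom, and 6 sums for Mki67 (4 degrees of freedom). edgeR 4.0.16 in R 4.3.3 was used with TMM, filterByExpr, robust quasi-likelihood tests and Benjamini-Hochberg adjustment at 0.05. DESeq2 1.42.0 was an alternative. Gates of a library come from the same sort, so the library pairs them, and a fit with it as a block was an alternative. The libraries differ in age, so the spread between replicates includes age, and no p-value refers to animals. On simulated counts for the Ibsp to Hand2 comparison (13355 genes), edgeR called 82% of genes changed by 2 on the log2 scale and 13% of those changed by 1. The changed genes had a mean of at least 10 CPM. All sums were drawn independently, without an effect shared by the gates of a library, so these percentages hold for that setting only. Doublets were scored with Scrublet (scanpy 1.11.5), whose automatic threshold was not used. As an alternative the 6% of cells with the highest scores were left out.

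Members and lists were chosen with earlier results of these data known. Named were the members, listed ligands and receptors, up to 3 called list genes with the largest change in each direction, and the 5 genes most like a member. Splits by Ibsp, Krt14 and Hand2 level, the ratio of mCherry to Pthlh, Gnas and the cells of at least 20000 UMIs were added after values were seen. Other alternatives were looser, stricter and overlapping gates, a filter of 500 genes and 20% mitochondrial UMIs, RLE size factors, no filter on low counts, other thinning depths and each library left out.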

Additional observations from a re-analysis of the deposited data

How the results depend on the processing

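The fold changes of Pthlh, mCherry and Pth1r between gates were set most by how a gate was drawn. Of 255 refitted fold changes, 205 kept their direction and side of the threshold, 23 lost the call, 10 gained it and 17 changed sign, and the cause was not tested. The 1-UMI Hand2 gate held 19, 32 and 50 cells at P15, P25 and 8 weeks, and its P15 sum was left out of these fits. The 1-UMI Krt14 gate had Pth1r at 43.0, 32.7 and 27.5 CPM, against 8.41, 3.88 and 4.69 CPM as first drawn. With 1 UMI as the gate, the log2 fold changes of Pthlh were -0.39 (Ibsp to Ifitm5), 0.72 (Ibsp to Hand2), 1.11 (Ifitm5 to Hand2), -0.19 (Rgs5 to Hand2), 0.063 (Krt14 to Hand2) and 3.23 (Hand2 to Ptprc). Those of mCherry were -0.30 (Ibsp to Ifitm5), 1.19 (Ibsp to Hand2), 1.49 (Ifitm5 to Hand2), 0.65 (Krt14 to Hand2) and 2.93 (Hand2 to Ptprc), and those of Pth1r 1.01 (Ibsp to Hand2), 1.12 (Rgs5 to Hand2), 0.43 (Krt14 to Hand2) and 0.95 (Hand2 to Ptprc). With overlapping gates, Pthlh gave 0.95 (Ibsp to Hand2), 0.83 (Ifitm5 to Hand2), -0.87 (Rgs5 to Hand2), -0.60 (Krt14 to Hand2) and 1.93 (Hand2 to Ptprc), mCherry 0.67, 0.54, -1.15, -0.054 and 2.53 in the same order, and Pth1r 0.19 (Ibsp to Hand2). Stricter gates gave -1.34 for Pthlh and -1.16 for mCherry (Rgs5 to Hand2, with 1 Rgs5 sum) and 1.49 for mCherry (Hand2 to Ptprc). Without the cells of the highest doublet scores mCherry was at 2.76 (Ibsp to Hand2) and 2.21 (Hand2 to Ptprc), and with no filter on low counts Pthlh was at 1.4998 (Krt14 to Hand2). Cells of at least 3000 UMIs, an alternative chosen after seeing the data, changed no call of a member.

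With the library as a replicate block, Pthlh (-0.77) and mCherry (-0.48) passed in cycling cells, and the block changed no other call of a member. With 1 library left out, Pthlh ranged from 2.65 to 3.67 (Ibsp to Hand2), 2.59 to 3.50 (Ifitm5 to Hand2), -1.16 to 1.43 (Rgs5 to Hand2) and 0.84 to 2.12 (Krt14 to Hand2). mCherry ranged from 2.21 to 3.06, 2.06 to 2.87, -0.94 to 1.10 and 1.42 to 2.34 in that order, and from 0.47 to 2.47 (Hand2 to Ptprc). Pth1r ranged from -0.37 to 0.045 (Ibsp to Hand2) and from -0.26 to 0.067 (cycling). A lone sum in such a fit, as in the Rgs5 gate when gates were stricter, is assumed to vary like the others.

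The number of pathway genes called ranged from 0 to 12 (Ibsp to Ifitm5), 0 to 3 (Ibsp to Hand2), 1 to 26 (Ifitm5 to Hand2), 0 to 6 (Rgs5 to Hand2), 14 to 50 (Krt14 to Hand2), 10 to 34 (Hand2 to Ptprc) and 0 to 1 (cycling) with 1 library left out. Over all genes the number ranged from 0 to 770, 13 to 179, 150 to 1853, 0 to 327, 1479 to 5622, 1969 to 5088 and 337 to 885 in that order. DESeq2 called 9 (Ibsp to Ifitm5, 12.7% of the list against 5.47% of all genes) and 8 (Ibsp to Hand2, 11.3% against 2.91%). It called 7 between Rgs5 and Hand2 (9.86% against 4.65%) and 6 in cycling cells (8.45% against 11.3%). The block called 7 (Ibsp to Ifitm5, 9.86% against 4.33%), 6 (Ibsp to Hand2, 8.45% against 2.06%) and 21 (cycling, 29.6% against 25.4%). Over all genes, 261 called between Ibsp and Ifitm5 became 50 with 1-UMI gates, 41 with overlapping gates, 752 in DESeq2 and 586 with the block, and 127 between Ibsp and Hand2 became 2, 16, 380 and 279 (220 with stricter gates). Between Rgs5 and Hand2 303 became 21 (1 UMI), 489 (overlapping) and 639 (DESeq2). Stricter gates left 1 Rgs5 sum, so no count is given for them. With 1-UMI gates, 1747 became 192 (Ifitm5 to Hand2), 4846 became 108 (Krt14 to Hand2), 5320 became 3132 (Hand2 to Ptprc) and 1085 became 689 (cycling), and the block called 3413 in cycling cells.

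The Pthlh level of the Ibsp gate was 174, 243.7 and 266 CPM with 1-UMI gates, 448, 315 and 379 CPM with stricter gates, and 408, 298 and 333 CPM without the highest doublet scores, and over all genes of the P25 library it was 273 CPM. The share of Ibsp-gated cells with Pthlh was 37.4%, 31.1% and 33.7% at 1500 UMIs, 70.6%, 62.7% and 63.8% at 6000 UMIs and 77.9%, 75.6% and 61.8% without thinning. The odds ratio with mCherry was 2.21 (P25) and 4.998 (8 weeks) at 6000 UMIs and 8.44, 3.72 and 8.27 without thinning. Depth limits what Pth2r can show, and low numbers of cells in some libraries limit what the Hand2, Rgs5 and Ptprc gates can show.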

Other observations

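Pthlh was spread unevenly over the cells of each gate. The 10% of Ibsp-gated cells with the highest Pthlh share of their UMIs held 36.3%, 39.7% and 44.1% of the summed shares at P15, P25 and 8 weeks. In ungated cells that part was 65.6%, 53.3% and 57.5%, and in Krt14-gated cells 58.6%, 63.7% and 74.8%. In Hand2-gated cells it was 68.7%, 64.2% and 72.3%. Sparse counts raise such a percentage by themselves, so the gates with low levels are not compared with the Ibsp gate.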
